A study of Homo sapiens with 8 samples.

Results

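Accessible chromatin was compared between U-937 cells treated with Corin alone and cells given only the vehicle. U-937 is a human monocytic leukaemia line, labelled by the submitters as acute myeloid leukaemia cells. ATAC-seq was used, which reads out open chromatin by the insertions of a transposase. The Corin group received 0.1 µM Corin for 24 h, and the control group received DMSO for the same 24 h. Each group had 2 samples, and the series holds 8 samples in 4 groups, the other two being 0.1 µM ATRA (all-trans retinoic acid) and 0.1 µM of both compounds together, called the combination. For each group 1 list of peaks was analysed, in which the authors had already combined both samples. A spread between samples could therefore not be computed, and no difference below was tested. All groups are 1 cell line, and nothing in the labels says that samples of a group were separate cultures.

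Overlapping peaks of a list were merged, which gave 101851 regions with Corin and 116563 with DMSO. The lists together formed 133528 union regions, of 161291 over all 4 lists. A Corin region with no DMSO region overlapping it by 1 bp is called gained, the reverse is called lost, and a union region with a peak of each list is called shared. There were 18023 gained regions (17.7% of the Corin list), 33186 lost regions (28.5% of the DMSO list) and 82319 shared regions. With the DMSO list limited to as many of its strongest regions as the Corin list has, 21722 were gained and 22367 lost, nearly even numbers. At shared regions the height of the highest peak, which is the authors' fold over local background, was compared between the lists on a log2 scale. The median difference was −0.09, so that peaks stood at 0.942 times their DMSO height with Corin, and all shifts below are given relative to this median. A shared region is called risen or fallen when the shift was at least 2-fold, and steady otherwise. By this rule 1469 shared regions were risen (1.78%) and 2313 were fallen (2.81%). This balance turned when shifts were centred within 20 classes of strength, which gave 2114 risen and 1338 fallen regions. These terms describe the lists and stand for no test.

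Corin joins a benzamide inhibitor of class I histone deacetylases to an inhibitor of the histone demethylase LSD1 (KDM1A). Both enzymes sit in the CoREST complex on an RCOR scaffold protein, and the complex is a co-repressor that removes activating marks from histones at enhancers and promoters. Zinc finger repressors such as GFI1 bring it to DNA in blood cells. AP-1 is a dimer of FOS and JUN family proteins that binds enhancers of stimulated and differentiating cells, while PU.1 (SPI1) and the RUNX factors are lineage factors that maintain myeloid enhancers. ATAC-seq shows how accessible a sequence is and measures neither binding nor transcription.

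The sequences of the strongest risen regions share 1 feature, so they are shown first. Each line holds 200 bp of build hg38, plus strand, 5′ to 3′, centred on the strongest summit in either list. Capitals mark TGANTCA, the consensus of AP-1, on either strand, where N is any base.
near TPT1, chr13:45367475-45367674: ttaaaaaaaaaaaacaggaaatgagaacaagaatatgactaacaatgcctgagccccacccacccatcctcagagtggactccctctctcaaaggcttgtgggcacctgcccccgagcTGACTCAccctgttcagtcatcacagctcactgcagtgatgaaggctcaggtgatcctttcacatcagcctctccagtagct
near DNM3, chr1:171817768-171817967: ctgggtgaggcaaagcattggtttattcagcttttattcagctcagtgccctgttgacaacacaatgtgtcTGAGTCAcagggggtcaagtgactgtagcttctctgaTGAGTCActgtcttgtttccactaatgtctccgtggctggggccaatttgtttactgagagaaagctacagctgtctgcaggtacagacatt
near PAX8, chr2:113240933-113241132: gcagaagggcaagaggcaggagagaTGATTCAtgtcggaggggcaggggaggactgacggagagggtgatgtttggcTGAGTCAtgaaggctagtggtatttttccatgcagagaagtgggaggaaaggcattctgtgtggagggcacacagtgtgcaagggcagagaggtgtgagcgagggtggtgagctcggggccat
near DUSP5, chr10:110512857-110513056: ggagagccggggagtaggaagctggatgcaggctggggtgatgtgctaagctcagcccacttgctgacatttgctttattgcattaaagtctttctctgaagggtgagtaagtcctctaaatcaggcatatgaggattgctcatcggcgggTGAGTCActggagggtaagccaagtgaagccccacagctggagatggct
near ULBP3, chr6:150072296-150072495: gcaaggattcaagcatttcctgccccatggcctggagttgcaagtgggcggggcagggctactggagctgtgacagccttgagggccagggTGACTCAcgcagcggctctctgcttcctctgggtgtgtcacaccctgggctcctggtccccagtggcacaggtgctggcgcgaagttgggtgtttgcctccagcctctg
All 5 windows hold the consensus, which was found in 14.2% of the windows of all union regions. The windows near DNM3 and PAX8 hold 2 copies.

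Windows of 3 gained regions are shown for the same reason, with the same capitals. These are the 3 gained regions with the highest −log10 p.
gained near ITGA6, chr2:172516359-172516558: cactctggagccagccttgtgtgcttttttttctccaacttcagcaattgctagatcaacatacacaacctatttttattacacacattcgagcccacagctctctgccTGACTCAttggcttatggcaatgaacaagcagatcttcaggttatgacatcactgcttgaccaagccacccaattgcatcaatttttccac
gained near BCL10, chr1:85278921-85279120: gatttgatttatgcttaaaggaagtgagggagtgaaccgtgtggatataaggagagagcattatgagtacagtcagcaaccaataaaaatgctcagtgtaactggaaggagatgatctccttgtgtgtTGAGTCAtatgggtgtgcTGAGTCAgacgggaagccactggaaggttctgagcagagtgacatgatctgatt
gained near USP53, chr4:119209203-119209402: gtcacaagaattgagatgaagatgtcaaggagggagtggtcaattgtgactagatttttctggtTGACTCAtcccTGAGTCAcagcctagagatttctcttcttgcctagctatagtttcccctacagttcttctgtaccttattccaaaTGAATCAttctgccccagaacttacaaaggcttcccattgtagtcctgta
The window near USP53 holds 3 copies of the consensus, that near BCL10 2 and that near ITGA6 1.

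The largest falls are described next. Regions of the strongest 20% of a list by −log10 p, or of the shared regions by the mean over both lists, are called strong. Of the 10 strong shared regions with the largest falls, that near STK17A held the AP-1 consensus, 2 held GAGGAAGT, the consensus of PU.1, and 3 held TGTGGTT, the consensus of RUNX. Over all union regions 14.2%, 5.57% and 8.27% of the windows held these motifs, and 10 regions are too few to differ from those shares. Of the 10, 3 chosen for a PU.1 or RUNX match are shown, with these matches in capitals on either strand. By the 2-fold rule 2 of the 10 are fallen, and of those shown only that near STK17A. Those near ITGA6 and CPNE5 had shifts of −0.83 and −0.67 and are steady by that rule, also where the line is labelled fallen.
near STK17A, chr7:43572555-43572754: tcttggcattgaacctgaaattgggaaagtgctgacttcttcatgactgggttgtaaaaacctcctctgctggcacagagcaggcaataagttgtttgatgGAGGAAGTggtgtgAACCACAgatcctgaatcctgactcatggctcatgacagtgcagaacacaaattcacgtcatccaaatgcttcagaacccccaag
fallen near ITGA6, chr2:172395666-172395865: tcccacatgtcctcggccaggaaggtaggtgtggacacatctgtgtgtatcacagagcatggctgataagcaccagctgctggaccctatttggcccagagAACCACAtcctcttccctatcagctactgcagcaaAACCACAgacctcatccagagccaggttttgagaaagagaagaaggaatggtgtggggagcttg
RAB44, near CPNE5, chr6:36727785-36727984: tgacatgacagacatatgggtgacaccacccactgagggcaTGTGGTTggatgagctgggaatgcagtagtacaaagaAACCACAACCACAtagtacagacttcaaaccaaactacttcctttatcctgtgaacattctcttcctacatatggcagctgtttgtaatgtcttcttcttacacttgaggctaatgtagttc
Windows of 3 risen regions next to genes of the gene lists described further below complete the set, chosen with their values known and again with AP-1 in capitals. CD163 is a scavenger receptor of macrophages, CD86 a co-stimulatory ligand for T cells, and TGM2 a transglutaminase known as a retinoic acid target.
CD163, chr12:7498829-7499028: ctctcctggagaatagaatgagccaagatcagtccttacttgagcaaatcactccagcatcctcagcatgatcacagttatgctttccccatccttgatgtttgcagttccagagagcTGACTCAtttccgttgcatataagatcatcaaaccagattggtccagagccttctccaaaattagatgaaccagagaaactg
TGM2, chr20:38144199-38144398: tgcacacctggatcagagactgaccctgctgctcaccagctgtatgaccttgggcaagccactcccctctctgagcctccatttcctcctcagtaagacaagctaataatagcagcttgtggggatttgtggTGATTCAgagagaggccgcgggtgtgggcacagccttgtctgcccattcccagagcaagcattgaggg
CD86 promoter, chr3:122055293-122055492: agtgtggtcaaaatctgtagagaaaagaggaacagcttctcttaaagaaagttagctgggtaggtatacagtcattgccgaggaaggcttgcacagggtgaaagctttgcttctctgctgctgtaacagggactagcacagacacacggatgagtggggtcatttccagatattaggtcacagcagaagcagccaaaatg
The window at the CD86 promoter has no capitals because it holds no match.

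The labelled cell type was checked against promoters of marker genes. Of 8 myeloid and monocytic markers 7 had a called promoter in each list, among them SPI1, CD33, LYZ and CSF1R, and MPO had none in either. No promoter of 5 erythroid markers was called. Of 5 B cell markers 3 had a called promoter in each list (CD79A and EBF1 among them), and of 5 T cell markers 2 had one (TCF7 and BCL11B). EPCAM, of 4 epithelial markers, was called with DMSO and not with Corin. The DMSO list held 222491 peaks and the Corin list 189896. The lowest −log10 p was 2.79 with DMSO and 2.00 with Corin, and the most frequent background under the peaks was a pileup of 12.8 and 13.1 reads. The sequencing depth of the lists is unknown, and list length and floor cannot be told apart from the treatment in the counts of gains and losses.

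Most shared regions kept their height. Between the lists 82.9% of them shifted by less than 1.5-fold, and the central 90% lay between −0.84 and 0.66. Near the limit, 561 regions lay in the 0.1 log2 units below the limit for risen regions and 387 in the 0.1 above it. For fallen regions the numbers were 967 and 726. The authors' fold also depends on the background of each peak, so the read pileup was recovered from p and fold. The shift of that pileup ran with the shift of the fold with a Pearson correlation of 0.912 across the shared regions, which are not independent.

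**Figure D1:**
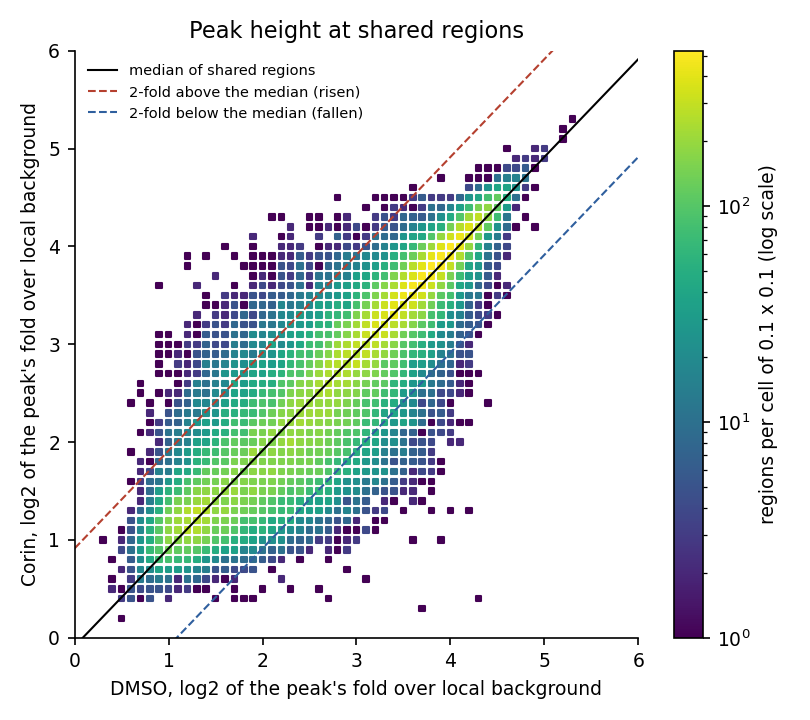
Height of the highest peak at the 82319 shared regions with DMSO (x axis) and Corin (y axis), both as log2 of the authors' fold over local background. Colour gives the number of regions per cell on a log scale, and regions above the upper dashed line are risen (1469) and those under the lower one fallen (2313).

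Changes were found mainly among regions of low and middle strength, though few shared regions of the weakest decile were risen or fallen. Strength was taken as −log10 p, in deciles of a list for gained and lost regions and in deciles of the mean of both lists for shared ones. In the weakest decile 67.2% of Corin regions were gained and 74.8% of DMSO regions lost. In decile 5 the shares were 9.07% and 27.6%, and in decile 8 0.275% and 0.232%. Risen regions were most frequent in decile 5, at 3.81%, and fallen ones in decile 4, at 8.04%. In decile 1 the shares were 0.061% and 0.085%. The median shift itself differed with strength, from −0.21 in deciles 3 and 4 to 0.09 in decile 9. These shares therefore depend on the single centre, and centring within classes of strength turned the balance, as given above. In decile 6 the shares were close, at 3.66% and 3.37%, and in decile 8 risen regions outnumbered fallen ones by 71 to 14. Of the strongest 20% of shared regions 17 were risen (0.103%) and 2 fallen (0.0121%).

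**Figure D2:**
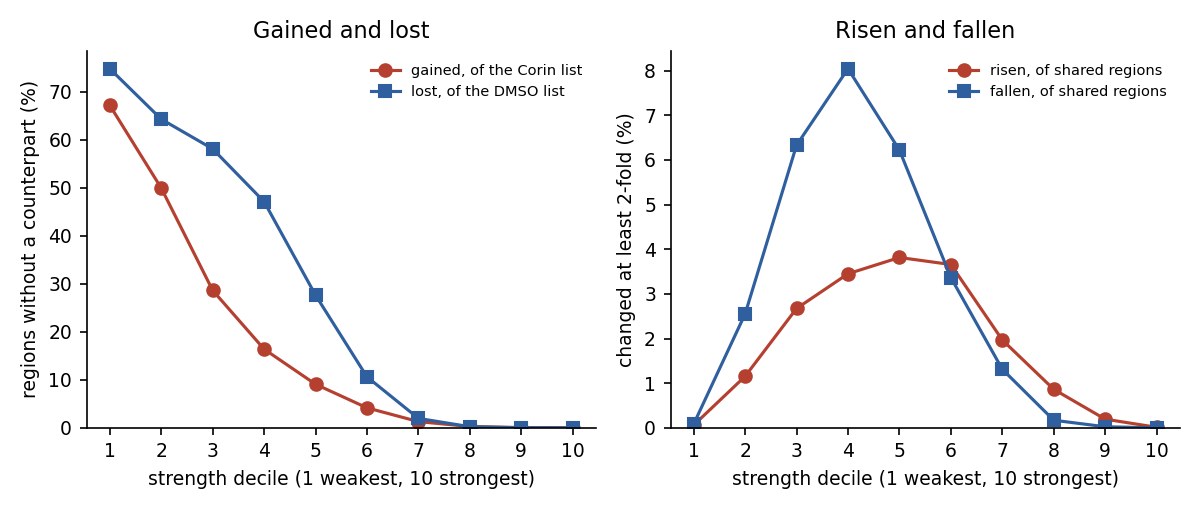
Share of regions that were gained or lost (left) and of shared regions that were risen or fallen (right), in percent, by strength decile from the weakest to the strongest. Gains and losses decline from 67.2% and 74.8% in the weakest decile, while fallen regions peak at 8.04% in decile 4 and risen ones at 3.81% in decile 5. The median shift differs between deciles, from −0.21 in decile 3 to 0.09 in decile 9.

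Risen and fallen regions lay mostly away from promoters. Within 1 kb of a transcription start 191 of 22431 shared regions were risen (0.852%) and 257 fallen (1.15%). Elsewhere 1278 of 59888 were risen (2.13%) and 2056 fallen (3.43%). Introns held 48.7% of the risen and 51.1% of the fallen regions, and 32.5% and 30.7% were intergenic. Of steady regions in strength deciles 2 to 7, 45.0% were in introns and 29.5% intergenic. Promoters held 17.3% of those steady regions, 13.0% of risen and 11.1% of fallen ones. Mean GC content of the windows was 45.8% in risen, 48.4% in fallen and 52.6% in steady regions. In steady ones of deciles 2 to 7 it was 48.7%, close to that of fallen regions. The called width moved with the height: risen regions had median widths of 390 bp with DMSO and 575 bp with Corin, and fallen ones of 650 bp and 390 bp. Strongest summits mostly stayed in place, with a median distance of 13 bp between lists in risen and in fallen regions. Only 14 risen and 30 fallen regions had summits over 500 bp apart. The local background of a region was taken from the list with the higher −log10 p there, which can be a different list in risen and fallen regions. A local background of at least 1.5 times the most frequent one was found at 43.3% of risen, 18.7% of fallen and 59.0% of steady regions. In steady ones of deciles 2 to 7 the share was 45.8%, close to that of risen regions. The part of the background in the shifts was not tested.

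Chromosome 19 differed from the others in the balance of both sets. It held 59 risen and 32 fallen regions, so that 64.8% of its changed shared regions were risen, against 38.8% over all chromosomes. It was chosen after its values were seen, and 65.7% of its union regions had a raised background.

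Of the 18 motifs searched on both strands, AP-1 was the most frequent in risen windows. Of 1469 risen windows 1035 held it (70.5%, 95% Wilson interval 68.1 to 72.7, counting error only). Of 2313 fallen windows 108 did (4.67%, 3.88 to 5.61), and of steady regions in the deciles of strength where changes were common, deciles 2 to 7, 15.6% did. The reversed, not complemented, consensus was found in 9.46% of risen and 4.71% of fallen windows. Gained windows held AP-1 in 20.7% and lost ones in 6.79%.

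The share followed the size of the shift among the 49391 shared regions of strength deciles 2 to 7. In those that fell by more than 1.5 on the log2 scale 2.25% of windows held AP-1 (1.09 to 4.57). The share was 7.48% for shifts between −0.58 and −0.3, 16.5% between 0 and 0.3, 51.8% between 0.58 and 1, and 78.0% (72.5 to 82.7) above 1.5. It was higher in each successive class of the 10. Over all 82319 shared regions, windows without a copy that has C or G at the centre had a median shift of −0.03. With 1 such copy the median was 0.24, with 2 copies 0.48 and with 3 or more 0.64. The share of risen regions went from 0.852% with 0 copies to 7.10% with 1, 19.95% with 2 and 26% with 3 or more, the last over 50 windows. Of 802 regions with 2 copies and 50 with more, 0 were fallen.

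Position and letters of the matches were also described. Matches lay a median of 19 bp from the summit in risen windows and 60 bp in fallen ones, and 61.4% of the former were within 25 bp of it against 22.2% of the latter. The centre base was C or G in 58.3% of all risen windows, and A or T in 19.5%, some windows holding both kinds. At least 2 copies with C or G were found in 11.8% of risen and 0.865% of steady windows.

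The difference in AP-1 share was also present within classes of strength, base composition and position. In deciles 2 to 8 of strength AP-1 was found in 61.1% to 84.5% of risen windows, and in deciles 2 to 7 in 2.89% to 8.57% of fallen ones. Steady windows held it in 8.60% to 18.9% over all deciles. In the windows with the lowest GC content the shares were 67.4% in risen, 19.9% in steady and 5.91% in fallen regions, and in those with the highest 75%, 7.83% and 3.03%. At promoters they were 64.9%, 9.18% and 3.89%, and elsewhere 71.3%, 17.3% and 4.77%.

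Gained regions showed the same course with strength. In the weakest decile of the Corin list 8.07% of gained windows held AP-1 (7.45 to 8.74), in decile 4 47.0%, in decile 6 66.5% and in decile 8 85.7%, or 24 of 28 windows (68.5 to 94.3). Lost windows stayed between 3.70% and 8.24% over the same deciles of the DMSO list. The weakest deciles 1 and 2 held 6841 and 5085 of the 18023 gained regions.

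**Figure D3:**
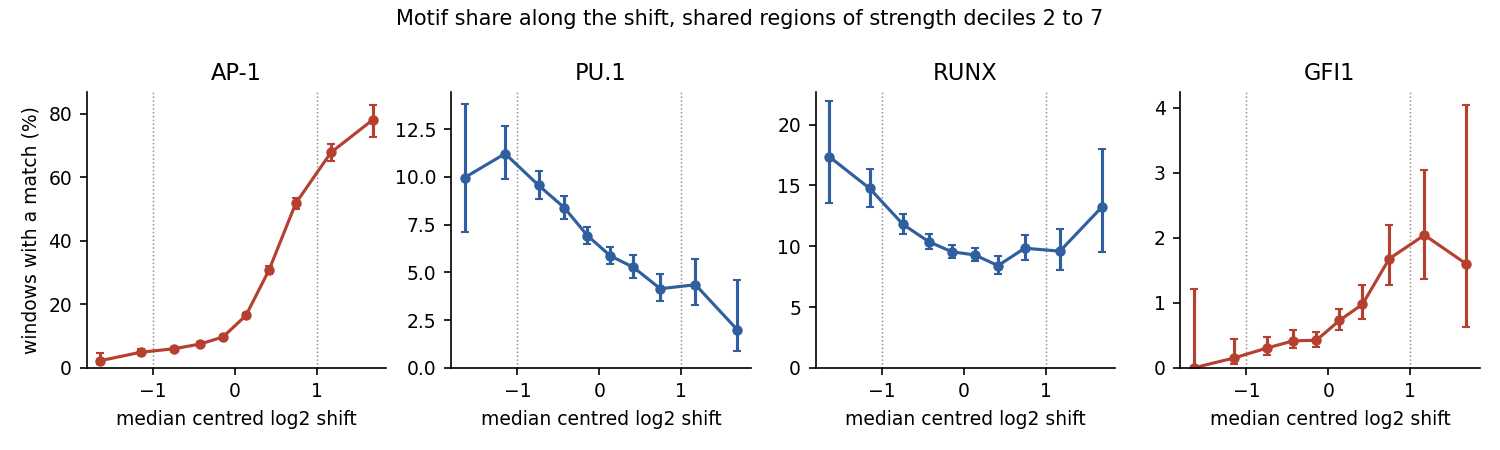
Share of 200 bp summit windows with a match to each motif, in percent, against the median shift in 10 classes of the 49391 shared regions of strength deciles 2 to 7, with bars for 95% Wilson intervals and dotted lines at the 2-fold limits. AP-1 goes from 2.25% in the most fallen class to 78.0% in the most risen one, PU.1 goes from 9.97% to 2.00%, and the vertical scales differ between panels.

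PU.1 matches ran the other way, and RUNX matches were more frequent in fallen windows than in both other sets. PU.1 was found in 11.1% of fallen windows (9.85 to 12.4), 6.92% of steady ones in deciles 2 to 7 and 3.95% of risen ones (3.07 to 5.07). It was found in 5.57% of all union windows. RUNX was found in 15.3% of fallen (13.9 to 16.9), 9.82% of such steady and 10.1% of risen windows, and in 8.27% of all. Within regions called with ATRA the PU.1 shares were 11.3% in fallen (10.1 to 12.7), 6.86% in steady and 5.96% in risen windows (4.54 to 7.79), so the risen and steady shares were close there. Among windows without AP-1 and with PU.1 5.57% of 4467 regions were fallen and 0.560% risen. Among those with neither motif 3.01% were fallen and 0.630% risen. Where AP-1 and PU.1 occurred together, in 705 windows, the median shift was 0.15 and 4.68% were risen, against 0.25 and 8.20% with AP-1 alone.

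GFI1 matches were rare and lay on the risen side. The consensus AATCACNGC was found in 31 risen windows (2.11%, 1.49 to 2.98), in 3 fallen ones (0.130%, 0.0441 to 0.381) and in 0.641% of all. It can share letters with an AP-1 copy that has A at the centre. Among the 424 windows with GFI1 and no AP-1 match, 4.01% were risen and 0.472% fallen, with a median shift of 0.11. In the 68967 windows with neither, the values were 0.605%, 3.19% and −0.04. CTCF, an insulator factor, was matched in 0.477% of risen, 3.50% of fallen and 7.29% of steady windows in deciles 2 to 7. C/EBP, TTGCNNAA, whose factors act in granulocyte and monocyte development, was close to even at 19.9%, 17.6% and 18.5% in the order risen, fallen and steady. NF-kB, GGGANTTCC, a factor of inflammatory signalling, had 0.408%, 1.43% and 0.897% in that order. The C/EBP shares pool windows with and without AP-1. Without AP-1, 1.17% of 10928 regions with C/EBP were risen and 3.53% fallen, against 0.523% and 3.11% of 58463 with neither. With AP-1, 7.67% of 2152 regions with C/EBP were risen, against 8.07% of 10776 without it.

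The other lists show where these regions stood with ATRA. Of fallen regions 96.8% were also called with ATRA and 76.3% with the combination. Of risen ones 56.0% were called with ATRA and 78.1% with the combination. Of all steady regions 87.1% and 86.7% were called there, and of steady ones in deciles 2 to 7 91.1% and 88.2%. In the 782 risen regions called in all 4 lists the median fold over background was 4.12 with DMSO, 9.26 with Corin, 5.34 with ATRA and 6.93 with the combination. In 1753 such fallen regions it was 8.97, 3.54, 14.4 and 5.22 in the same order, and in 64488 steady ones 8.74, 8.03, 11.7 and 8.97. The lists were not normalized to each other, and the values with DMSO and Corin are those that chose the sets. Risen windows absent from the ATRA list held AP-1 more often, at 80.4% of 647, than those called with ATRA, at 62.7% of 822. The same direction was found in steady windows, at 20.3% and 14.2%, and in fallen ones, at 14.7% of 75 and 4.33% of 2238. It is therefore not particular to risen regions.

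The 10 largest rises among strong shared regions all lay at regions with an AP-1 match, and none had a PU.1 or RUNX match. AP-1 was found in 84.5% of risen windows of decile 8, and PU.1 and RUNX in 3.95% and 10.1% of all risen windows. The counts of so few regions are therefore near these shares. The shifts of the 10 regions ran from 1.11 to 1.91. The ratios of recovered pileup, Corin over DMSO and relative to the median ratio of 0.913, ran from 2.10 to 5.11. All 10 were called with the combination and 6 with ATRA. The largest shift, 1.91, was found on chromosome 13 at 45367343 to 45367828, in an intron of the noncoding gene TPT1-AS1 and 26059 bp from the start of TPT1, which encodes the translationally controlled tumour protein. Its fold over background was 5.20 with DMSO, 18.4 with Corin, 5.37 with ATRA and 9.98 with the combination. The Corin value stands above the other three, and the pileup was 199 reads with DMSO and 773 with Corin, a ratio of 4.25 relative to the median (95% interval 3.64 to 4.996, counting error only).

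A region at a start of DNM3, a dynamin GTPase of membrane traffic, that is not the canonical one lay on chromosome 1 at 171817270 to 171818638. Its fold was 9.46 with DMSO, 22.8 with Corin and 8.50 with the combination, and it was not called with ATRA. Only the Corin value was high there. At PAX8, a paired box factor, a region at such another start (chromosome 2, 113239779 to 113241585) went from 6.46 to 14.8, with 11.1 under ATRA and 7.47 under the combination. Its strongest summits lay 804 bp apart in the lists, so that different peaks of 1 region were compared. Near DUSP5, a phosphatase of the ERK pathway, an intergenic region (chromosome 10, 110512471 to 110513359) had folds of 6.81 with DMSO, 15.1 with Corin and 3.23 with the combination, below DMSO. Near ULBP3, a ligand of the natural killer receptor NKG2D, the region at 150072087 to 150072636 on chromosome 6 went from 9.57 to 20.9. With ATRA it had 6.33 and with the combination 9.29.

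The other 5 lay near BAIAP2L1, PIGP, MBNL2, TM9SF2 and ZNF668. Their folds were 5.76 to 10.8 with DMSO and 11.8 to 22.2 with Corin. MBNL2, a splicing regulator, and ZNF668, a zinc finger protein, showed the contrast between the other lists. The region near MBNL2 stood at 8.79 with the combination, under its DMSO value of 10.8. The one near ZNF668 stood at 16.9, close to its Corin value of 19.3.

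The 2 strong fallen regions had an unusual entry in the Corin list. Near STK17A, a serine/threonine kinase linked to apoptosis, the region on chromosome 7 at 43572256 to 43573263 had folds of 20.9 with DMSO, 22.2 with ATRA and 21.1 with the combination, and 1.40 with Corin. In an intron of VPS13B near COX6C, on chromosome 8 at 99869246 to 99870575, the folds were 13.4, 14.6 and 9.99, and 1.30 with Corin. The Corin list holds 1 peak in each, at a −log10 p of 2.32 and 2.12, where DMSO had 874 and 914. Its summit lay 23 bp and 0 bp from that of DMSO. Both peaks lie under the lowest −log10 p of the DMSO list, and with that floor applied to both lists 0 strong shared regions were fallen. Whether these entries reflect the cells or the calling was not tested.

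The next falls were smaller than 2-fold, from −0.94 to −0.67. At a region 14429 bp from RBMX2, a splicing factor (chromosome X, 130416434 to 130417341), the fold was 18.5 with DMSO, 9.07 with Corin, 17.1 with ATRA and 6.74 with the combination. Both lists with Corin were low there. In an intron of ASCL5, a basic helix-loop-helix factor (chromosome 1, 201119715 to 201120583), the values were 16.3, 8.63, 18.8 and 8.82 in the same order, with the same split. In an exon of RAB44 near CPNE5 (chromosome 6, 36727373 to 36728174), a window with 3 RUNX matches of which 2 overlap by 1 base, they were 13.1, 7.72, 19.1 and 16.0, and only Corin alone was low. Near ID3, an inhibitor of basic helix-loop-helix factors (chromosome 1, 23554399 to 23555310), the fold went from 7.61 to 4.38 while the pileup went from 849 to 923 reads. The background there was 111 with DMSO and 210 with Corin. Taken from the pileup over the most frequent background of each list the shift was 0.25, so its direction depends on the background used. With that measure the falls near RBMX2 and ASCL5 were −1.96 and −1.41, larger than from the fold.

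**Figure D4:**
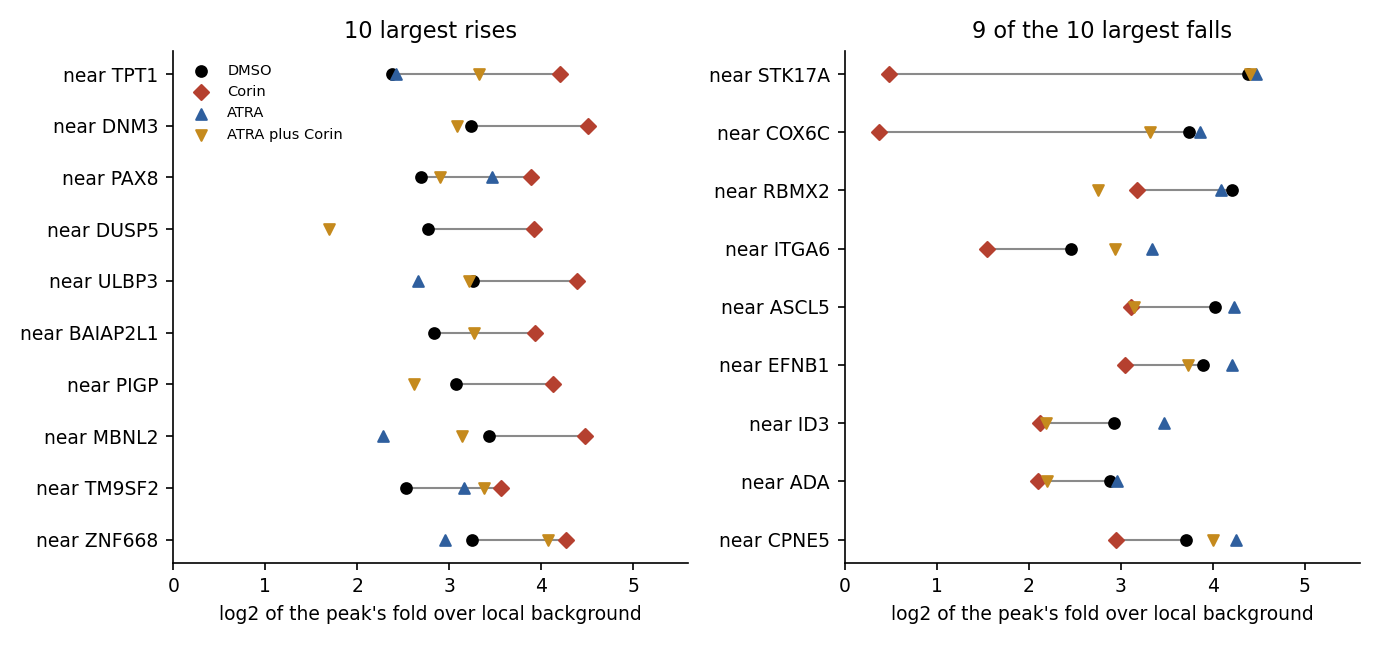
Height of the highest peak, as log2 of the authors' fold over local background, in all 4 lists at the 10 strong shared regions with the largest rises (left) and 9 of the 10 with the largest falls (right), each named by its nearest coding transcription start. Grey lines join DMSO (black circles) to Corin (red diamonds), and regions not called in a list have no symbol for it.

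Strong regions were almost never gained or lost. Of 20371 strong Corin regions 5 were gained (0.0245%) and 4 of these held AP-1, against 85.7% of gained windows in decile 8. None was called with ATRA and 4 were called with the combination. Their positions near ITGA6, BCL10, USP53, ATG7 and TSEN15 had Corin folds of 3.48, 4.57, 7.85, 9.46 and 6.34. ITGA6 is an integrin of the laminin receptors, BCL10 an adaptor of NF-kB signalling, ATG7 an enzyme of autophagy and TSEN15 a subunit of the tRNA splicing endonuclease. The local background was raised at all of them, from 4.05 times the most frequent one at ATG7 to 43.9 times near ITGA6, and its part in the gains was not tested. Of 23313 strong DMSO regions 3 were lost (0.0129%). They lay at DENND2D, at RNF144A and near SSBP3, with DMSO folds of 1.30, 2.62 and 2.85. AP-1 was found in 0 of them, near its share of 6.79% in all lost windows. The local background was raised at these too, to 173 times the most frequent one near SSBP3. At DENND2D and RNF144A the p and fold of the peak contradict each other, so the values recovered there, 2420 and 75.3 times, are uncertain. The part of the background in the losses was not tested.

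Genes around the changed regions were counted within 10 kb of the gene body. Of 20007 protein-coding genes 7865 had a gained region (39.3%), 11463 a lost one (57.3%), 1045 a risen one (5.22%) and 1424 a fallen one (7.12%). At promoters, 12322 genes had a shared region at a transcription start, with a median shift of 0.07, and only 16 of these were risen and 23 fallen. Of the 153 genes of 12 lists 11 had a risen region (7.19%) and 10 a fallen one (6.54%), both near the shares over all genes. These counts depend on the centring: without it 5 listed genes had a risen region and 16 a fallen one.

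The CoREST complex, the target of Corin, had a called promoter in both lists for all 12 of its listed genes. The shifts ran from −0.11 at RCOR1 to 0.65 at RCOR2, both scaffold subunits, with a median of 0.12. The promoter of KDM1A, which encodes LSD1, had folds of 20.2 with DMSO and 21.3 with Corin. That of HDAC1 had 21.8 and 21.1, and that of HDAC2 11.1 and 11.6. No listed CoREST gene had a risen region and 2 had a fallen one (16.7%), against 5.22% and 7.12% of all coding genes. Inside the KDM1A gene a region on chromosome 1 (23078933 to 23079631), at an internal transcription start 59490 bp from that of the gene, went from 9.11 to 3.62, a shift of −1.25. It had 17.6 with ATRA and 3.62 with the combination, so both lists with Corin were low. In an intron of PHF21A, the histone reader subunit BHC80, the region at 46106432 to 46107092 on chromosome 11 went from 11.01 to 2.83, a shift of −1.88. It had 14.8 with ATRA and was not called with the combination. The repressors that recruit the complex, GFI1, GFI1B, REST, INSM1 and the Snail genes, had 0 risen and 0 fallen regions. These are only 6 genes, too few to differ from the shares over all genes. Their promoter shifts lay between −0.32 at INSM1 and 0.29 at REST.

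The genes of the AP-1 factors themselves changed little at their promoters. All 15 had a shared promoter region, with shifts from −0.25 at ATF3 to 0.33 at BATF3 and a median of 0.00. FOS went from a fold of 5.71 to 5.02, JUN from 7.88 to 6.45, FOSL1 from 12.9 to 12.5 and MAFF from 7.69 to 8.97. No risen and no fallen region lay within 10 kb of any of the 15. Over all coding genes the shares were 5.22% and 7.12%, and 16 and 23 of 12322 shared promoters were risen and fallen. The zeros of so short a list are therefore near the background.

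Monocyte and macrophage genes had the most risen regions of the lists. This is also the largest list. Of its 20 genes 5 had a risen region (25%, against 5.22% of all coding genes) and 1 a fallen one (5%, against 7.12%). A gained region was found at 11 (55%, against 39.3%) and a lost one at 12 (60%, against 57.3%). The region in CD163, in an exon on chromosome 12 at 7498710 to 7499179, had folds of 5.51 with DMSO, 17.1 with Corin, 4.74 with ATRA and 15.4 with the combination. Both lists with Corin were high there, and the shift was 1.72. The CD163 promoter itself went from 5.43 to 8.41.

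The promoter of CD86 (chromosome 3, 122055203 to 122055677) went from 8.12 to 15.5, with 19.9 under ATRA and 16.3 under the combination. All 3 treated lists were high there. Near S100A9, a calcium-binding protein of neutrophils and monocytes, a region on chromosome 1 at 153368481 to 153368951 behaved alike, with 6.06, 11.8, 16.0 and 11.8 in the order DMSO, Corin, ATRA and combination. These shifts, 1.02 and 1.05, lie close to the 2-fold limit. At CD36, a scavenger receptor for lipids, 2 regions were risen and 1 fallen. Of the promoters, ITGAX (0.52) and S100A8 (0.63) lay on the upper side, and CSF1R (−0.41) and FCGR2A (−0.37) on the lower. The median over the 16 shared promoters was 0.06, close to that over all genes.

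Myeloid transcription factor genes had no risen or fallen promoter, as holds for nearly all coding genes (16 risen and 23 fallen of 12322). Over 14 shared promoters the shifts ran from −0.52 at CEBPE, a factor of late granulocyte development, to 0.13 at SPI1, with a median of −0.10. Of 18 genes 3 had a risen region nearby (16.7%, against 5.22% of all coding genes) and 2 a fallen one (11.1%, against 7.12%). At RUNX1, whose gene body of 1217 kb holds many regions, 5 fallen regions were found and 1 risen one. The risen one (chromosome 21, 35395812 to 35396567), the only one of the 6 with an AP-1 match, went from 2.93 to 7.05. The fallen ones had folds of 4.46 to 8.41 with DMSO, 2.03 to 3.395 with Corin and 8.60 to 17.2 with ATRA, so that they were highest with ATRA. Folds were higher in the ATRA list in general. Steady regions called in all lists had a median of 11.7 there, against 8.74 with DMSO. A region near CEBPD, in the last exon of its neighbour SPIDR (chromosome 8, 47734253 to 47735448), went from 11.6 to 4.86, with 18.6 under ATRA. Near SPI1 and RUNX3 a region each was risen, from 2.09 to 4.04 and from 2.59 to 5.15. Their shifts, 1.04 and 1.08, lie close to the 2-fold limit.

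Leukaemia and stem cell genes were divided, with 2 of 13 near a risen and 2 near a fallen region. Each share is 15.4%, against 5.22% and 7.12% of all coding genes. FLT3, a receptor tyrosine kinase of progenitors, had an intronic region that went from 4.57 to 8.84 and was not called with ATRA or the combination. A region in CDK6, a cell cycle kinase, went from 3.19 to 6.40. The shifts at FLT3 and CDK6, 1.04 and 1.09, lie close to the 2-fold limit. A region in KIT, the receptor of stem cell factor, went from 8.46 to 3.68. The one counted for CCND2, a D-type cyclin, lay at the promoter of its neighbour TIGAR and went from 6.30 to 2.26. The promoters of HOXA10 and HOXA9, homeobox factors of progenitors, shifted by 0.66 and 0.37.

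Retinoic acid response genes had promoters on the lower side, with a median shift of −0.20 over 8 shared promoters. The receptor genes RARA and RARB went from folds of 6.78 to 3.52 and of 6.23 to 3.54, shifts of −0.86 and −0.73. RARG (−0.08) and RXRA (0.20) were near 0. Of 12 genes TGM2 had a risen region (8.33%, against 5.22% of all coding genes), from 7.96 to 15.1. This region had 11.3 with ATRA and 11.2 with the combination. RARB had a fallen region in an intron (8.33%, against 7.12%), from 5.07 to 2.33. Both shifts, 1.01 and −1.03, lie close to the 2-fold limit. Interferon-stimulated genes had a median of −0.08 over 13 promoters, with IFIT3 (−0.68) and IRF7 (−0.51) lowest. A fallen region was found at 1 of the 16 genes (6.25%, against 7.12%).

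Granule protein genes had a median of 0.19 over 7 promoters, and CTSG, cathepsin G, was highest at 0.47. The 7 CDK inhibitor genes had no risen or fallen region, and are too few to differ from the shares over all genes. CDKN1A, a common target of deacetylase inhibitors, had a promoter shift of −0.21. Of 15 neuronal genes with REST sites 5 had a shared promoter, 4 a promoter called with DMSO only and 0 one called with Corin only. Over all 20007 coding genes these numbers were 12322, 590 and 297. The 10 housekeeping promoters lay between −0.22 and 0.24. Over all lists 12 risen regions were found, of which 9 held AP-1, and 14 fallen ones, of which 0 did. These counts are near the shares over all risen and fallen windows, 70.5% and 4.67%.

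**Figure D5:**
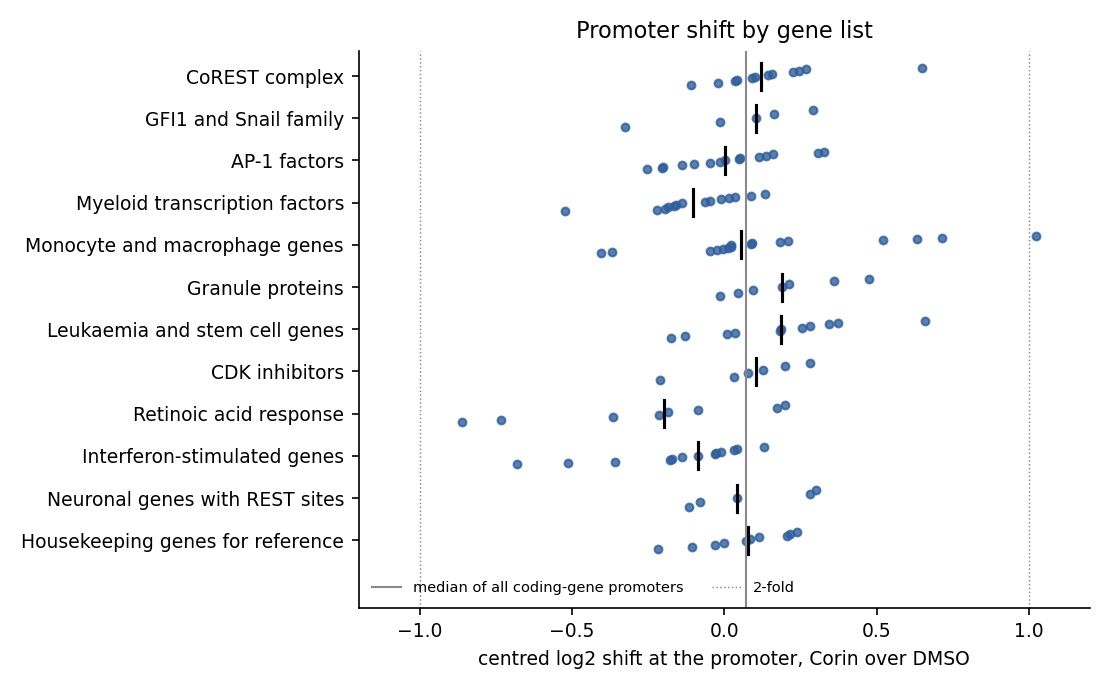
Centred log2 shift of promoter height, Corin over DMSO, for each listed gene with a shared promoter region (points), with the median of each list (black bars), the median of all coding genes (0.07, grey line) and the 2-fold limits (dotted). CD86 is the only listed promoter past a limit, and RARA, RARB and IFIT3 are the lowest.

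Genes were ranked by the difference between their gained and lost counts, which can be larger where a gene holds more regions. Over the whole lists 18023 regions were gained and 33186 lost. The highest excess of gained over lost regions was found at RPS6KA2, a ribosomal S6 kinase, with 26 gained and 13 lost. ADD2 had 10 and 2, PRKDC, the DNA-dependent protein kinase, 18 and 10, UTRN, a dystrophin relative, 15 and 7, and CDH4, a cadherin, 8 and 1. None of these 5 had a risen or fallen region. At RPS6KA2 12 of the gained and lost regions had a raised background, at PRKDC 10, at UTRN 3, and at ADD2 and CDH4 0. Over all gained and lost regions the shares with a raised background were 24.9% and 24.5%. The highest excess of lost regions was at TBC1D5, with 16 gained and 51 lost over 1288 kb. DENND1A had 0 and 19, FOXP1, a forkhead repressor, 5 and 24, and MYO16 6 and 23. An unnamed gene model that overlaps FOXP1 had 11 and 30, counted in part from the same regions.

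Among shared regions within 1 kb of an annotated coding transcript start, those named here were chosen after their values were seen. Apart from that of F13A1 they lie at starts inside the gene, away from its canonical start. At MAD1L1, a spindle checkpoint protein, such a region (chromosome 7, 2110184 to 2110680) went from 3.87 to 12.3, a shift of 1.75. At SPOCD1 the change was from 3.58 to 10.3, and at IQGAP2, a scaffold of the cytoskeleton, from 3.91 to 10.5. Among fallen ones SHANK2, a scaffold of synapses, went from 12.6 to 2.97, PLCB1, a phospholipase, from 17.1 to 4.24, and F13A1, a coagulation factor made by monocytes, from 11.9 to 3.75. With the combination MAD1L1 and SPOCD1 stood at 3.72 and 3.18, near their DMSO values, and IQGAP2 at 9.71. PLCB1 and SHANK2 were not called with the combination, and F13A1 had 4.55. At the canonical starts of MAD1L1, SPOCD1, IQGAP2 and PLCB1 the regions were steady, with shifts of −0.04 to 0.08, and SHANK2 had no region there.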

How the data were processed

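ATAC-seq peak lists of U-937 cells were analysed, 1 per group. The authors combined the 2 samples of each group. The submitters' processing notes name cutadapt, Bowtie2, SAMtools, Picard and MACS2 and build hg38, with no settings. In the deposited lists column 7 is a ratio, the fold of a summit over its local background. The deposited p and q are −log10 values, and the deposited score is a capped copy of p that was not used. The deposited summit is a distance in bp. None of these values was normalized between lists by the authors, as far as the sources used here say.

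Peaks were merged by overlap, and GENCODE release 44 gave the gene models. Pileup and background were solved from p and fold, adding 1 to each in the fold. The pileup was whole within 0.05 for 99.97% of DMSO peaks and 99.98% of Corin peaks, which left 62 and 44 that contradict themselves. Shifts were centred on their median. Promoters are within 1 kb of a transcription start. Intervals are 95% Wilson intervals for shares and exact binomial ones for pileup ratios, and cover counting error only. Read depth is unknown. No count of reads per sample was used, and 0 sample columns were left out. The method was tested on simulated data.

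Named regions were all strong gained and lost regions, where strong means the strongest 20%, and the 10 largest rises and falls among strong shared regions with whole pileups. Named genes were the 5 with the highest and the lowest gained minus lost count and, of each list, up to 3 with the largest rise and fall at a promoter or changed region, with a few more examples chosen with their values in view. A few of the items this selects are not reported here. Members, gene lists and motifs were chosen with earlier results of these data known. Python 3.11.15, numpy 2.4.6, pandas 2.3.3 and scipy 1.17.1 were used.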

Additional observations from a re-analysis of the deposited data

How the results depend on the processing

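No paired analysis was possible because each group is 1 pooled list and no result comes from a test, and for the same reason no replicate could be left out. In each of the 17 alternatives AP-1 was more frequent in risen than in fallen windows, at 57.9% to 71.3% against 1.73% to 5.64%. The share in risen windows was 64.9% with the pileup over the most frequent background, 66.2% with centring within 20 classes of strength and also with windows at the DMSO summit, 57.9% with a limit of 1.5-fold and 59.8% in windows of 100 bp. The share in fallen windows was 5.64% with 1.5-fold and 1.73% with 100 bp.

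Risen and fallen regions numbered 2962 and 3544 with the pileup and 5232 and 8861 with 1.5-fold, and 2114 and 1338 with centring within classes, where risen regions outnumbered fallen ones. With lists of equal length 21722 regions were gained and 22367 lost. With −log10 q of at least 5, 9680 regions were gained, 3 strong ones were gained, 5 strong ones lost, and 10 strong shared ones were risen and 0 fallen. Strong gained and lost regions numbered 69 and 238 when a counterpart had to cover 50% of the region, 8 and 5 without peaks of contradicting p and fold, and 0 and 1 for the strongest 10%, where 1 strong shared region was risen and 0 fallen. With the shared floor 5 strong regions were lost and 0 strong shared ones fallen. Strong risen and fallen regions numbered 177 and 61 with the pileup and 196 and 22 with 1.5-fold. Strong risen ones were 10 without centring, 10 with centring within classes and 11 with summits within 150 bp.

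Listed genes with a risen and with a fallen region were 17 and 21 with the pileup, 5 and 16 without centring, 33 and 38 with 1.5-fold, and 25 and 19 within 50 kb, where 113 had a gained one. The shift near ID3 reversed to 0.25 with the pileup. With −log10 q of at least 5, and with the shared floor, the regions near STK17A and COX6C were no longer shared and had no shift. Of all values recomputed 816 stayed close to the main value, 92 moved and 1 reversed. The cause of these changes was not tested. The alternatives with a shared floor, the DMSO summit and the summit distance were added with the data in view. A count is taken as unchanged within 1.5 times its main value.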
